A study of Drosophila melanogaster with 2 samples.

Results

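The Hox protein Deformed specifies the jaw-bearing part of the fly head, the mandibular and maxillary segments. Hox proteins recognise short, AT-rich DNA sites, often together with the cofactors Extradenticle and Homothorax, and much of their known target choice is made at enhancers that lie in the gene-bearing euchromatin. Chromosome arm 3L, the left arm of the third chromosome, carries a known Deformed target, the cell death gene reaper, whose activation by Deformed shapes the boundary between the maxillary and mandibular segments. The regions described here are those that a Deformed chromatin immunoprecipitation (ChIP-seq) yielded on the euchromatic part of 3L away from that locus.

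The members were chosen by position alone. They are the regions of the larger deposited list that lie on 3L with a centre at or below base 22500000, without those centred between 18130000 and 18460000, an interval set aside as the surroundings of reaper (that gene's place in these coordinates was not checked). This gave 703 of the 3898 regions of the list, or 18.0%, and 703 of its 925 regions on 3L. The set-aside interval held 16 regions and the centromere-proximal remainder of the arm 206. The last member before the limit, at 22438748 to 22438925, had 19 tags and a fold of 4.61, and the first region past it, at 22512973 to 22513299, had 37 tags and a fold of 3.32. The name euchromatic rests on this limit, and no chromatin mark was used to check it.

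The 2 groups were an immunoprecipitation with guinea pig anti-Deformed antibody and a mock precipitation with guinea pig IgG, 1 library each, from wild-type Oregon R embryos aged 5 to 9.5 hours. The labels name no dissection or sorting, so the chromatin is that of entire embryos, in which Deformed is made in head segments. The Deformed library held 15547495 tags after the caller's removal of repeated tags and the IgG library 12694075. Both libraries entered 1 joint call at a p-value cutoff of 0.001, and a stricter list from the same libraries, at 0.0001, served as a check. Without replicates no value below has a replicate error and no difference was tested. Intervals are 95% and cover counting error only.

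By the false discovery rate, no euchromatic 3L region stood clear of the control. The authors' caller reports this rate (FDR) by a swap: it exchanges the libraries, calls again, and gives the resulting calls of equal or better score as a percent of the calls as labelled. All 703 members had an FDR of 100%, and so had the 149 members of the stricter list. In the whole larger list 21 regions, or 0.539%, had an FDR under 100%, and 0 of these were members. The score, 10 times the negative log10 of the caller's p-value, ran from 30.02 to 91.35 among members, with a median of 35.48. The member with the highest score ranked 132 among all 3898 regions. Members took 5 of the first 200, 56 of the first 500 and 138 of the first 1000 places in the list, that is 2.50%, 11.2% and 13.8%, beside their 18.0% of the list.

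The members were short and held few tags. Their lengths ran from 101 to 829 bases, with a median of 195 and quartiles of 163 and 240. Tag counts ran from 13 to 154, with a median of 21 and quartiles of 17 and 27. The deposited fold enrichment, which compares the summit with a local background, ran from 2.68 to 7.94, with a median of 4.48 and quartiles of 4.07 and 4.93. Together the 703 regions covered 149 kb, which is 0.671% of the 22.2 Mb examined, and held 16615 tags, 0.107% of the filtered library. The summit lay near the middle of the region, at a median of 0.505 of its length.

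Tags followed length closely. Among the shortest 25% of the regions, of 101 to 163 bases, the median was 16 tags, and among the longest 25%, of 240 to 829 bases, it was 32. Across the 703 regions, which share both libraries, length and tags had a Spearman rho of 0.95, whereas tags and fold had one of -0.128. Tags per base had a median of 10.9 tags per 100 bases, the lowest being 9.13 and the highest 24.0. The lowest value was alike in the larger list's regions of euchromatic 2L (8.97), euchromatic 3R (9.09) and proximal 3L (9.01), with at least 13 tags per region in each. All regions passed the same cutoff, so this floor and the tie of tags to length need not be traits of the members. The effective genome of 120 Mb held 13.0 tags per 100 bases on average, all filtered tags counted. That mean takes in proximal sequence, where the called regions of 3L had a median of 15.4. It is therefore not the background of euchromatin, which was not computed, and a region below it can still be enriched locally. Of the 703 regions 36, 5.12% (3.61 to 7.02), exceeded this mean. In the stricter list 38 of 149 did, a share of 25.5% (18.7 to 33.3). The stricter region was the shorter in 92 of 139 overlapping pairs, so the 2 shares rest on unlike boundaries and do not compare strength. For example, the place at 5291971 to 5292210 had 12.5 tags per 100 bases, and its stricter region, from 5292017, had 13.92. Of the 36 in the larger list, 9 came from the 2 loci described next.

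**Figure D1:**
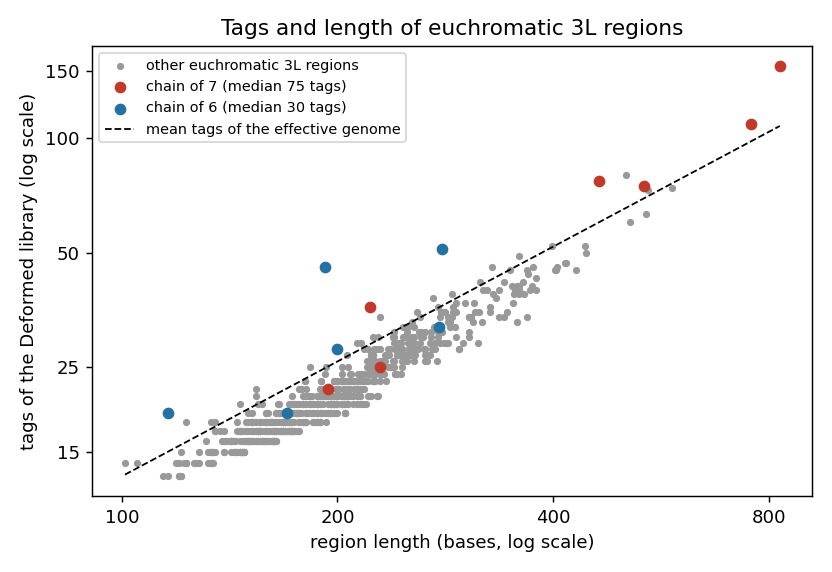
Tags of the Deformed library against region length for the 703 euchromatic 3L regions, both on log scales, with the 2 loci that stand out in colour and the mean tag density of the effective genome as a dashed line. The line counts all filtered tags and is not a euchromatic background. Most regions lie below the line, and 5 regions of the chain of 7 and 4 of the chain of 6 lie above it.

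The chain with most members lay at 9095773 to 9106983, a chain being a run of regions whose neighbouring centres are at most 10 kb apart. It had 7 regions over 11.2 kb, and 2 of them held the most tags of all members. The first 5 covered 2805 of the leftmost 3447 bases. The region at 9095773 to 9096307 held 75 tags (59.0 to 94.0) at a fold of 4.66, and the next, at 9096726 to 9096947 held 36 tags (25.2 to 49.8) at a fold of 4.84. The region at 9097026 to 9097488 had 77 tags (60.8 to 96.2) at 4.59.

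The next region of this locus, at 9097500 to 9098255, had the highest score of any member, 91.35, with 109 tags (89.5 to 131.5) and a fold of 4.34. The one after it, at 9098391 to 9099219, was the longest member and held the most tags, 154 (130.6 to 180.3), at a fold of 3.71 that ranked only 622 among the 703. Gaps of 78 and 11 bases separated the second from the third and the third from the fourth region, so that these 3 calls all but adjoin. The remaining pair, at 9106140 to 9106333 and 9106755 to 9106983, had 22 and 25 tags, close to the members' median. In the stricter list the first 5 were found again, with 33 to 154 tags and scores from 43.89 to 103.47, the latter being the highest score of that list's members.

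A second locus, at 20329728 to 20338898, stood out by fold more than by tags. Its 6 regions lay within 9.17 kb and included 4 of the 7 highest folds of all members. The region at 20329728 to 20329897 had the highest fold, 7.94, on 19 tags (11.4 to 29.7), a count below the members' median. The region at 20331513 to 20331792 had 51 tags (38.0 to 67.1), a fold of 6.87 and a score of 84.78, which ranked 3.

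Its neighbour at 20331850 to 20332041, 57 bases further on, had 46 tags (33.7 to 61.4), a fold of 7.2 and the highest tag density of any member, 24.0 per 100 bases. The region at 20333518 to 20333717 had 28 tags at a fold of 7.44. The remaining regions, at 20333136 to 20333251 with 19 tags and 20338622 to 20338898 with 32, had folds of 4.46 and 4.45, near the members' median. The first of them was dense for its length, with 16.4 tags per 100 bases. The stricter list also had 5 regions here, since it chained 4 of the 6 with a region at 20319790 to 20319982 that had 23 tags and a fold of 7.47. The larger list called that place from 20319630, with 39 tags and a fold of 5.21, and its centre fell just outside the chain distance. Folds at the locus near 9.10 Mb were 3.17 to 4.88, all below the members' upper quartile of 4.93, whereas the 4 high folds of the locus near 20.33 Mb came on 19 to 51 tags.

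**Figure D2:**
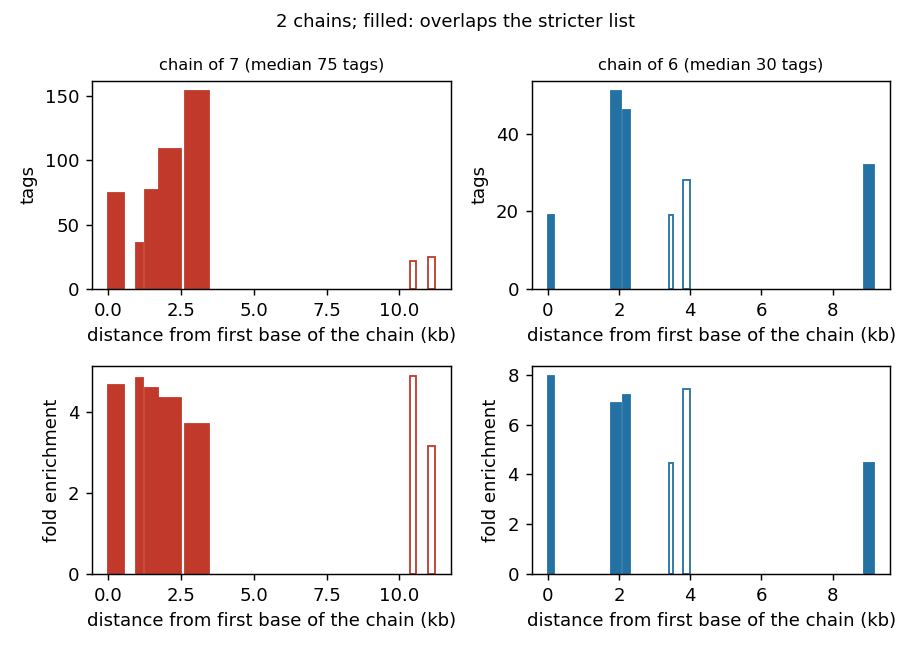
Tags (upper row) and fold enrichment (lower row) of each region in the chain of 7 with a median of 75 tags (left) and in the chain of 6 with a median of 30 tags (right), against the distance from the chain's first base in kb, with the bar's width as the region's length. Filled bars overlap a region of the stricter list; tags peak at 154 on the left, and 4 regions on the right have folds of 6.87 to 7.94.

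In the other chains with most regions the median tags were nearer the members' 21 than at the 2 loci, where they were 75 and 30. The median folds of these chains were nearer the members' 4.48 than that near 20.33 Mb (7.035). They were further from it than that near 9.10 Mb (4.59). The chains at 15375164 to 15393455, 5305540 to 5323986 and 10109325 to 10133931 had 6 regions each. Their median tags were 16.5, 26.5 and 21 and their median folds 4.20, 4.34 and 5.03. Those at 20556142 to 20574685 and 12969608 to 12999248 had 5 regions each, with median tags of 20 and 27 and median folds of 3.88 and 4.67. The most compact chain of 4, at 2991029 to 2997958, had 15 to 23 tags per region, and 0 of its regions overlapped the stricter list. Single regions in these chains scored higher: 10109325 to 10109703 had 40 tags and a score of 63.29 (rank 22), 12985702 to 12986073 had 40 and 61.05 (rank 32), and 5323713 to 5323986 had 32 and 60.71 (rank 33). In the stricter list the first had only 21 tags and a score of 41.44 (rank 131). The second was absent there, and the third again scored 60.71 (rank 20). In none of these 6 chains did a region exceed the mean tag density of the effective genome.

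Outside these 2 loci the members with the highest scores were scattered. After the top-ranked region near 9.10 Mb, the next highest score belonged to a region at 2330257 to 2330604, with 45 tags (32.8 to 60.2), a fold of 6.23 and a score of 89.51. It had the same ends, tags and score in the stricter list. A region at 10197875 to 10198203 followed the one near 20.33 Mb, with 46 tags, a fold of 5.69 and a score of 80.81, and then one at 17135349 to 17135606 with 35 tags, a fold of 6.97 and a score of 78.95.

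The other members among the 10 highest scores were spread over the arm. The region at 16453646 to 16453861 had 29 tags and a score of 73.02, and that at 11441838 to 11442109 had 38 tags and a score of 72.71. The region at 14702930 to 14703222 had 37 tags and a score of 70.42, and that at 1064641 to 1064858 had 28 tags and a score of 67.05. Tag intervals of these 4 regions overlap one another, so their order by tags is not resolved at this depth.

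Of the 11 members with most tags (2 tied for the last place), 1 had a fold above the members' upper quartile of 4.93, the region at 13330374 to 13330960 with 74 tags at 5.01. Others had low folds: the region at 11695608 to 11696113 had 80 tags (63.4 to 99.6) and the lowest fold of all members, 2.68. That at 423746 to 424288 had 73 tags at 3.0-fold, that at 4423758 to 4424270 had 60 at 3.41, and that at 10034586 to 10035124 had 63 at 3.91. The stricter list lacked those starting at 11695608, 423746 and 4423758. The tied regions, at 3129622 to 3130064 and 16803141 to 16803539, had 52 tags each at folds of 3.6 and 4.45, and the stricter list lacked the former too.

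Folds of at least 6.54 outside the locus near 20.33 Mb came on 18 to 35 tags. The region at 6458617 to 6458808 had 24 tags at 7.0-fold, and that at 11236054 to 11236279 had 26 at 6.82. A fold of exactly 6.54 was shared by the regions starting at 1996736, 5290077, 5952357, 16702436 and 20047041. Such repeated values were common: 227 members, 32.3% (28.8 to 35.9), had one of the 6 folds most repeated among members. These were 3.74, 4.20, 4.67, 5.14, 5.60 and 6.07, which lie 0.46 or 0.47 apart. Folds of 6.54 and 7.0 follow at like steps but were each held by fewer members and were not counted. As background, MACS divides by the largest of a genome-wide and several local background estimates, and the genome-wide one is the same for every region. Whether these 227 regions were set against that common value was not tested.

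Along the arm the members were spread from 38180 to 22438925, at 31.7 per Mb (29.4 to 34.1), with the highest count of a 1 Mb bin near its middle. In 1 Mb bins counted from the distal end, bin 11 held the most, 58 (44.0 to 75.0), followed by bin 16 with 43 (31.1 to 57.9) and bin 13 with 39. All 8 bins from 10 to 17 held 32 to 58 regions. The first 9 held 20 to 37, with 37 in bins 3 and 6, so the ranges overlap. Past bin 17, the complete bins 18, 20, 21 and 22 held 28, 22, 34 and 22. Bin 19, shortened by the interval set aside, held 29, or 43.3 per Mb of what was left. Bins 1 and 9 held the fewest among complete bins, 20 each (12.2 to 30.9). Median tags per bin stayed between 18 and 28, the latter in bin 23, which spans 0.5 Mb and held 15 regions. Since each region had passed the same cutoff, these medians do not compare the strength of the bins. The stricter list put its highest numbers in bins 21 and 10, with 13 and 12 regions, which are the bins of the 2 loci above, and had 11 in bin 11.

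**Figure D3:**
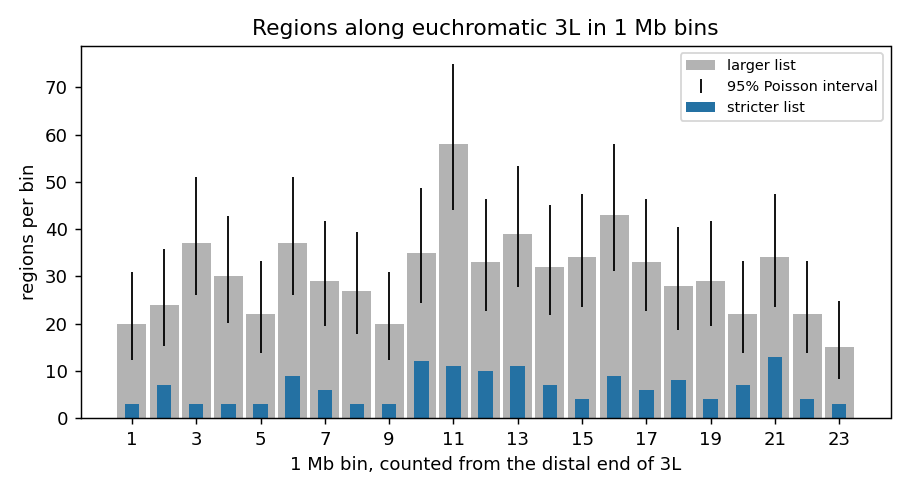
Number of regions in each 1 Mb bin of euchromatic 3L, counted from the distal end, in the larger list (grey, with 95% Poisson intervals) and the stricter list (blue). Bin 11 has 58 regions; bin 19 lacks the interval set aside, which leaves 0.67 Mb, and bin 23 ends at the limit and spans 0.5 Mb.

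Neighbouring members were a median of 18.7 kb apart, centre to centre (quartiles 6.88 and 42.6 kb, n = 701 pairs, the pair across the interval set aside not counted). The mean distance was 31.4 kb, the shortest 170 bases and the longest 303 kb. Centres were at most 10 kb apart in 227 of the 701 pairs, 32.4% (28.9 to 36.0), and over 100 kb apart in 37. In 7 pairs the regions themselves were less than 100 bases apart. Region-free stretches of over 200 kb occurred 5 times, the longest of 303 kb from 80466 to 383663, followed by 250 kb from 1150237 to 1400218 and 243 kb from 1568110 to 1811216, so that 3 of the 5 lay in the most distal 2 Mb. Those from 4181889 to 4423001 and from 13983953 to 14186718 were 241 and 203 kb long.

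**Figure D4:**
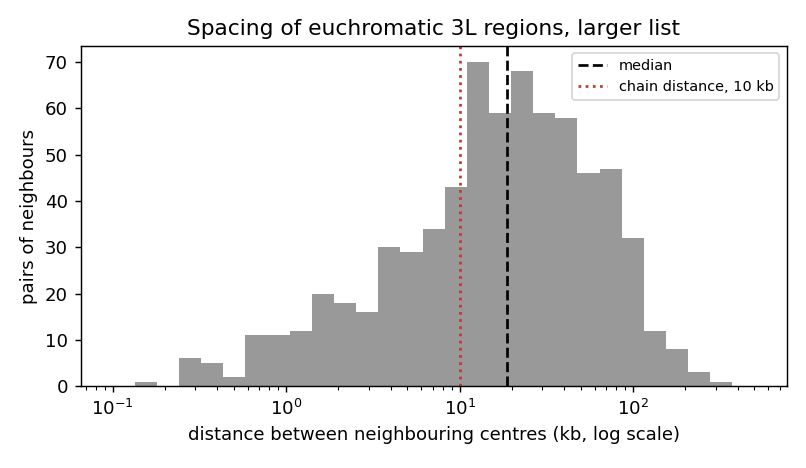
Distances between the centres of neighbouring euchromatic 3L regions in kb on a log scale, as numbers of pairs among 701. The dashed line is the median of 18.7 kb and the dotted line the chain distance of 10 kb, to the left of which 227 pairs lie.

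Nearly 1 member in 2 stood alone: 331 regions, 47.1%, had no neighbour within 10 kb, 283 lay in chains of 2 or 3, and 89, 12.7%, in 19 chains of 4 or more. The median tag count was 21 (20 to 23) for single regions, 20 (19 to 21) in chains of 2 or 3 and 21 (20 to 23) in longer chains, and the median folds were 4.38, 4.56 and 4.46. An overlap with the stricter list was found for 17.5% (13.6 to 22.1) of single regions and 28.1% (19.1 to 38.6) of those in longer chains, whose intervals overlap. Of the 25 overlapping regions in longer chains, 5 came from the locus near 9.10 Mb and 4 from that near 20.33 Mb. Counted in fixed windows of 50 kb, 120 of the 442 windows free of the interval set aside held 0 members, and 17 held at least 5. The highest number was 7, in the windows 2950001 to 3000000, 15350001 to 15400000 and 20300001 to 20350000. Of these 7, the stricter list had 0, 2 and 5, respectively. Among the 6 windows with 6 members, 5300001 to 5350000 and 9050001 to 9100000 came first along the arm, and the stricter list had 1 region in the one and 5 in the other.

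The stricter list held part of the same regions on this arm. Of its 149 members 139, or 93.3% (88.0 to 96.7), overlapped a larger-list member, and 139 of the 703, or 19.8% (16.9 to 22.9), overlapped a stricter one. Both ends were the same in 47 of the 139 pairs, and in the other 92 the stricter region was the shorter. All 10 members with the highest scores had a stricter counterpart, as had 39 of the first 50 and 70 of the first 100. Only 6 of these 10 had a counterpart among the 10 highest scores of the stricter members. Scores did not carry over unchanged, being higher in the stricter list in 60 pairs and lower in 32. The region at 14702930 to 14703222 fell from a score of 70.42 (rank 8) to 51.18 (rank 45). That at 1064641 to 1064858 fell from 67.05 (rank 10) to 51.6 (rank 42). The place at 13330374 to 13330960 had 74 tags and a score of 60.63 in the larger list, but 56 tags on 336 bases and a score of 98.76 in the stricter list, where it ranked 2 among members.

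A score past the stricter cutoff did not ensure a place in the stricter list. Among the 703 members 196 had a score of at least 40, and 84 of these, 42.9% (35.8 to 50.1), had no stricter counterpart. Their median tag count was 28, beside 27.5 in the 112 with a counterpart, while their median fold was 4.34 beside 5.00. The 10 stricter members without a larger counterpart had 17 to 31 tags.

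Euchromatic 3L was set beside 2L without its last 2 Mb before the centromere, 3R (the arm of the Hox complexes) without its first 2 Mb, and proximal 3L. Nothing else was taken out of 2L or 3R, so the sets are unlike: the Hox complexes were not removed, whereas the interval near reaper was. Densities were 31.7 per Mb (29.4 to 34.1) on 3L, 34.7 (32.2 to 37.3) on 2L and 33.5 (31.3 to 35.8) on 3R. Median tags were 21, 21 and 22, median lengths 195, 199 and 202 bases, and median folds 4.48, 4.41 and 4.35, in that order. The FDR was 100% for each region of these 3 sets. In the stricter list 2 chains of at least 4 regions lay on euchromatic 3L, the 2 loci described above, and 0 on 2L or 3R. In the larger list such chains held 12.7% of regions on 3L, 13.3% on 2L and 19.3% on 3R. The stricter chain at 9095790 to 9099219 had 5 regions that covered 2694 of its 3430 bases, so its count depends on where the calls were split. Numbers of chains do not rank the arms by strength. In the stricter list the highest tag count of a region was 154 on 3L, 786 on 2L and 56 on 3R. The 6 common folds were held by 32.3% of members, 32.2% (28.9 to 35.8) on 2L and 22.2% (19.5 to 25.1) on 3R. They were chosen as the most repeated values of the members, so this comparison favours 3L. On 3R a fold outside the 6, 4.03, was held by 11 regions.

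Regions of proximal 3L were closer together and held more tags than the members. There were 102.5 of them per Mb (89.0 to 117.6), with a median of 39 tags, a median length of 247 bases and a median fold of 5.00, and 3 of its 206 regions had an FDR under 100%. Tags per base exceeded the effective genome's mean in 63.1% (56.1 to 69.7) of proximal regions and in 5.12% of members. The 6 common folds, chosen on the members, were found in 11.7% (7.61 to 16.8) of proximal regions. With 1 library per group these differences were not tested, and IgG tags per region were not analysed here.

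**Figure D5:**
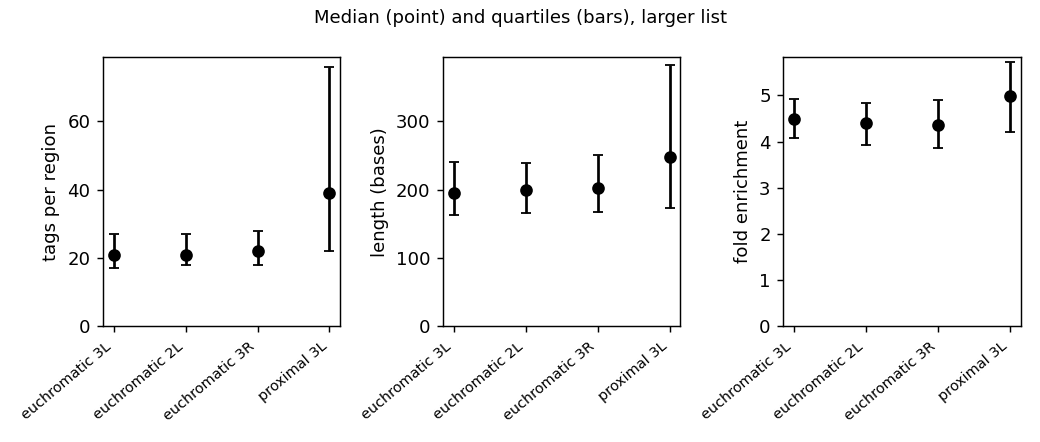
Median (points) and quartiles (bars) of tags, length in bases and fold enrichment per region of the larger list for euchromatic 3L, 2L and 3R and for proximal 3L. The 3 euchromatic sets have median tags of 21, 21 and 22, and proximal 3L has 39.

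No gene is named at these loci. The sources used here hold no gene positions on the build of the regions, and no genome of that build from which their sequence could be read.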

How the data were processed

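ChIP-seq libraries of Deformed and of mock IgG (1 each) were aligned; the submitters' processing notes name Bowtie, with version and build not given in the sources used here. The authors called regions with MACS 1.4.0beta, per the file headers, with a tag size of 40 bases, d of 50, an effective genome of 120 Mb and at most 4 (Deformed) or 3 (IgG) tags per position, which left 15547495 of 20112283 and 12694075 of 13016695 tags. The deposited tag count is a whole-number count of Deformed tags per region, the deposited score is the negative log10 of the p-value, multiplied by 10, the deposited fold is a ratio of summit to background, and the deposited FDR is a percent. A cap on repeated tags limits the counts of strong regions, and the local background lowers folds in tag-rich surroundings.

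Positions are printed as deposited, counted from 1. The gene table at hand is of Release 6, in which 564 of 4226 genes on 3R and 38 of 3482 on 3L lie beyond the last region of these lists, so it was not used to place regions. The lists of genes drawn up for naming were therefore not used.

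Members, chains (neighbouring centres at most 10 kb apart), 50 kb windows and spacing were computed with Python 3.11.15, numpy 2.4.6, pandas 2.3.3 and scipy 1.17.1, and checked on planted positions. Figures used matplotlib 3.10.9. Overlap means 1 shared base or more. Intervals are exact Poisson for counts, exact (Clopper-Pearson) binomial for shares and binomial order statistics for medians. They treat tags or regions as independent, which neighbouring regions need not be. Regions named by position were the 10 first by score, tags and fold, the 8 chains with most regions and the 5 densest windows, and others singled out were chosen after their values were seen. The members and measures were chosen with earlier results of these data known. No test was made, because each group has 1 library.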

Additional observations from a re-analysis of the deposited data

How the results depend on the processing

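Of 39 recomputed values, 21 stayed within 1.5 times a count or within the interval of a median or share, among them all those with the proximal limit moved by 0.5 Mb or the interval near reaper kept. Those settings gave 688, 723 and 719 regions beside 703, so they could change little and are a weak check. The stricter list had 149 regions, median tags of 22, a median fold of 4.98 and a median spacing of 93.2 kb, with 2 windows of at least 5 regions and 2 chains of at least 4. Larger-list regions with a score of at least 40 numbered 196, with median tags of 28, a median length of 242 bases, a median fold of 4.67, a median spacing of 81.5 kb, 2 such windows, 2 such chains and 57.1% overlapping a stricter region. Fewer regions enter under both settings by construction. The 17 windows became 52 with 100 kb windows and 50 with at least 4 regions, and 20 when shifted by 25 kb. The 19 chains became 7 at 5 kb and 54 at 20 kb, so numbers of chains and windows hold only for their definitions. Regions above the mean tag density numbered 36 in the larger list, 38 of 149 in the stricter list and 27 without the 2 loci near 9.10 and 20.33 Mb. The latter 2 settings were chosen after seeing the data. As counts, the 38 and the 27 are among the 21. As a share the stricter value moved, to 25.5% beside 5.12%, on boundaries that differ. The 27 follows from taking those loci out, so it is no check. No paired analysis was possible because each group holds 1 library and no result comes from a test. Depth limits single regions: a count of 21 tags has an interval of 13.0 to 32.1.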
